A study of Mus musculus with 2 samples.

Results

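The genes described here encode proteases and the proteins that inhibit them. Members were taken by name: cathepsins (Cts), matrix metalloproteinases (Mmp), ADAM and ADAMTS genes (Adam), the memapsins Bace1 and Bace2, and, as inhibitors, cystatins (Cst), serpins (Serpin), tissue inhibitors of metalloproteinases (Timp) and Slpi. Of 4331 genes measured, 59 were members, 29 of them proteases and 30 inhibitors, read by 65 probes. All 59 had an identifier in the RefSeq gene table. Bace1 was not analysed here.

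Cathepsins are mostly lysosomal enzymes. Their catalytic residue is a cysteine in most members, a serine in Ctsa and Ctsg and an aspartate in Ctsd and Ctse. Cystatins block the cysteine cathepsins, serpins trap serine proteases in an irreversible complex, TIMPs bind matrix metalloproteinases and some ADAM proteases, and Slpi inhibits elastase and cathepsin G of neutrophils. In T cells such enzymes and inhibitors are best known for the activation and restraint of granule proteases and for the shedding of surface receptors.

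RNA of splenic CD4+ alpha beta T cells from wildtype mice and from LatY136F mice was hybridised together on 2 two-colour arrays, with the channels of the 2 RNAs exchanged on array 2. LatY136F mice carry a phenylalanine in place of a tyrosine of Lat, an adaptor of the T cell receptor; the cells had been enriched with magnetic beads against CD4 and sorted. The labels give neither the age, sex, background strain or number of the mice nor any treatment, and do not say whether the arrays were made from separate RNA extracts. The pair is therefore 1 comparison with no test, the ± below is 0.5 times the difference between the arrays, and that difference may be technical only.

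Values are log2 ratios of LatY136F over wildtype after centring each array, with array 2 sign reversed. A gene was called when it was at least 2-fold apart in 1 direction on both arrays. No source used here states the direction of the deposited ratio. It was taken as channel 2 over channel 1 and is called likely, since the T helper 2 genes Gata3 (2.95 on array 1 and 2.91 on array 2) and Il13 (3.67 and 3.12), published as raised in LatY136F CD4+ T cells, are then positive. Il4, another T helper 2 gene, differed in sign between the arrays (1.41 and -0.97) and so does not bear on the reading. Under the opposite reading each gene called higher is lower. The base of the logarithm was read as 10 and is likewise likely, not certain. The table holds ratios and no signals, so how bright a probe was is unknown, and the number of arrays limits the precision.

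Of the 59 members, 11 (18.6%) were called higher in LatY136F cells, beside 4.20% of all genes measured. None was called lower, beside 0.970% of all genes. These shares are not independent of the data, because members were chosen with earlier results of these data known. Slpi and Bace2 entered by single name. The 11 comprised 6 of 29 proteases (Bace2, Ctsg, Ctsc, Ctse, Ctsl and Ctsa) and 5 of 30 inhibitors (Slpi, Serpinb6a, Cst7, Serpinb2 and Cst3), so both sides of the balance held called genes. Beside them, neutrophil and macrophage markers had median ratios of 1.34 and 1.16 and B cell markers of -1.14, as described further on. The neutrophil median is the value of Prtn3, whose arrays differed (2.49 and 0.19). At 1.5-fold on both arrays 14 members were higher, beside 7.83% of all genes, and none was lower, beside 2.93%. The 3 that this threshold added were proteases: Ctsz, Ctsd and Ctsf.

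**Figure D1:**
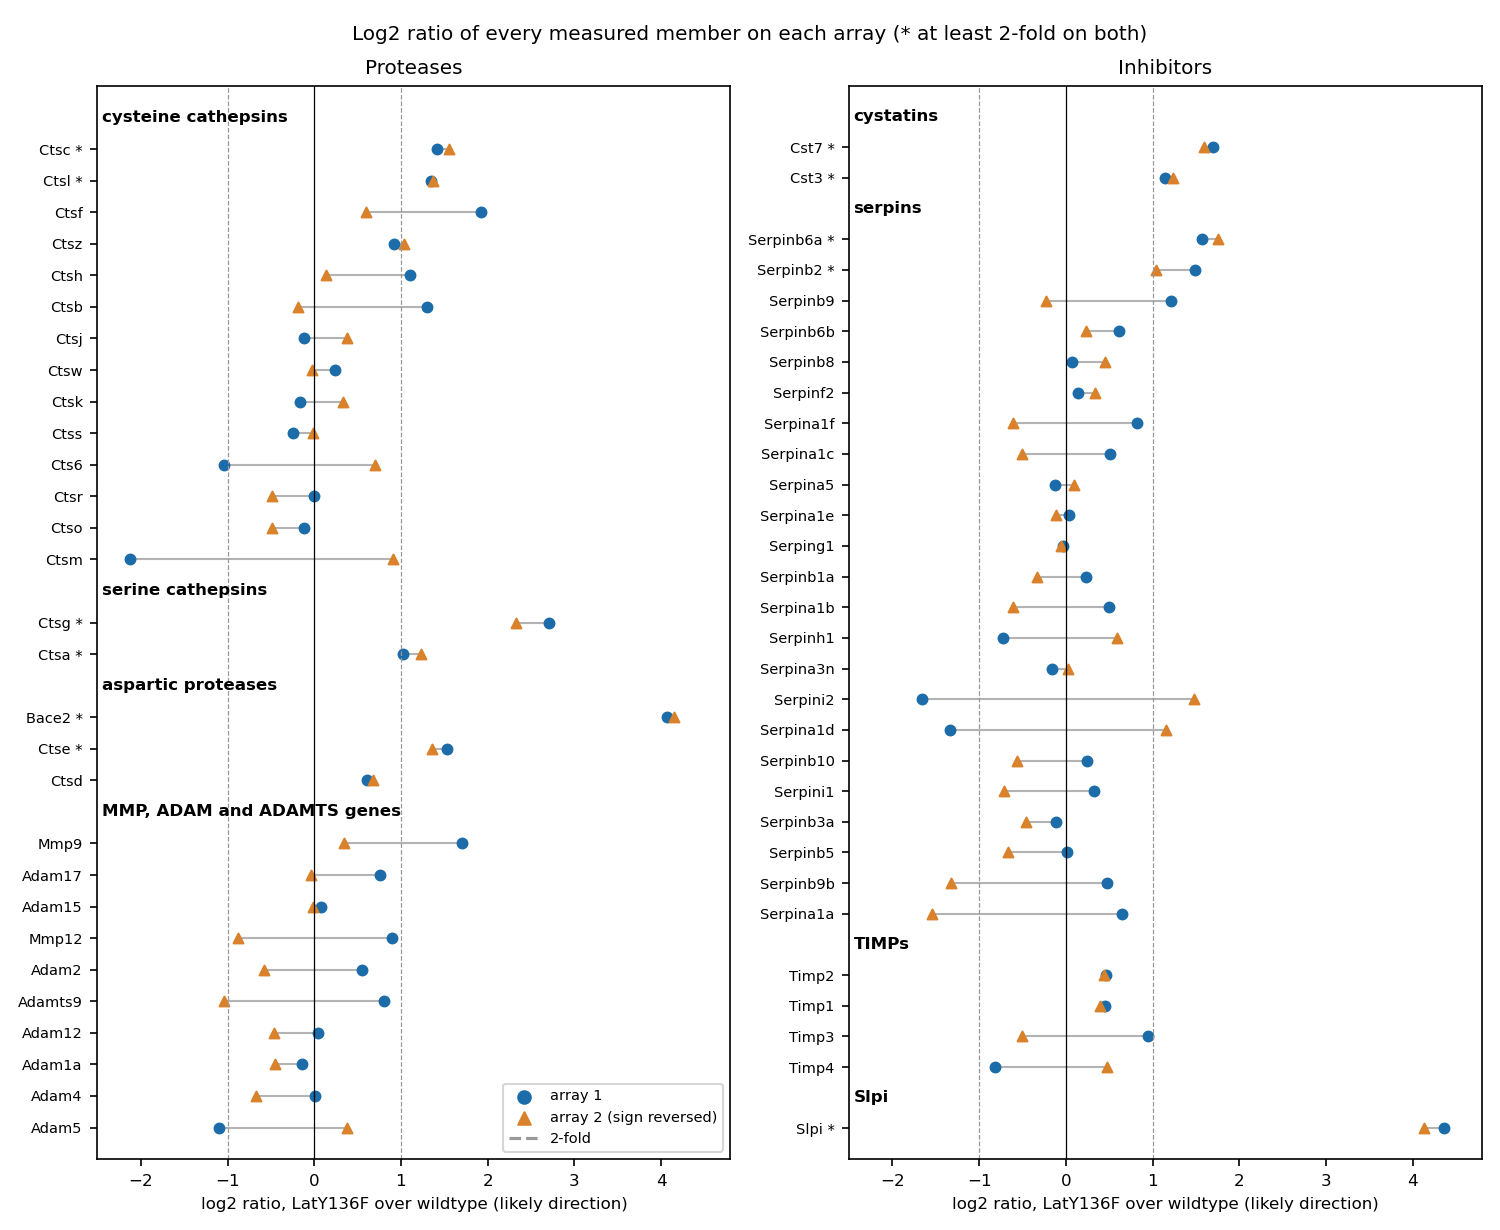
Log2 ratio (x axis) of each of the 59 members on array 1 (circles) and array 2 after sign reversal (triangles), grouped by class, with a grey line joining the arrays of a gene; dashed lines mark 2-fold and an asterisk marks the 11 called genes. The called genes have both points to the right of 2-fold, as the rule requires, while many serpins and ADAM genes have 1 point on each side of 0.

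The arrays often disagreed on the sign of a member. It was the same on both arrays for 27 of the 59 (45.8%), called members included, beside 55.8% of all genes measured. Half-differences between the arrays, as given after ±, had a median of 0.25 over the members and 0.15 over all genes. The median of the 59 mean ratios was 0.03, beside 0.0004 over all genes. The members thus held a minority of high ratios, and the others lay on both sides of 0.

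**Figure D2:**
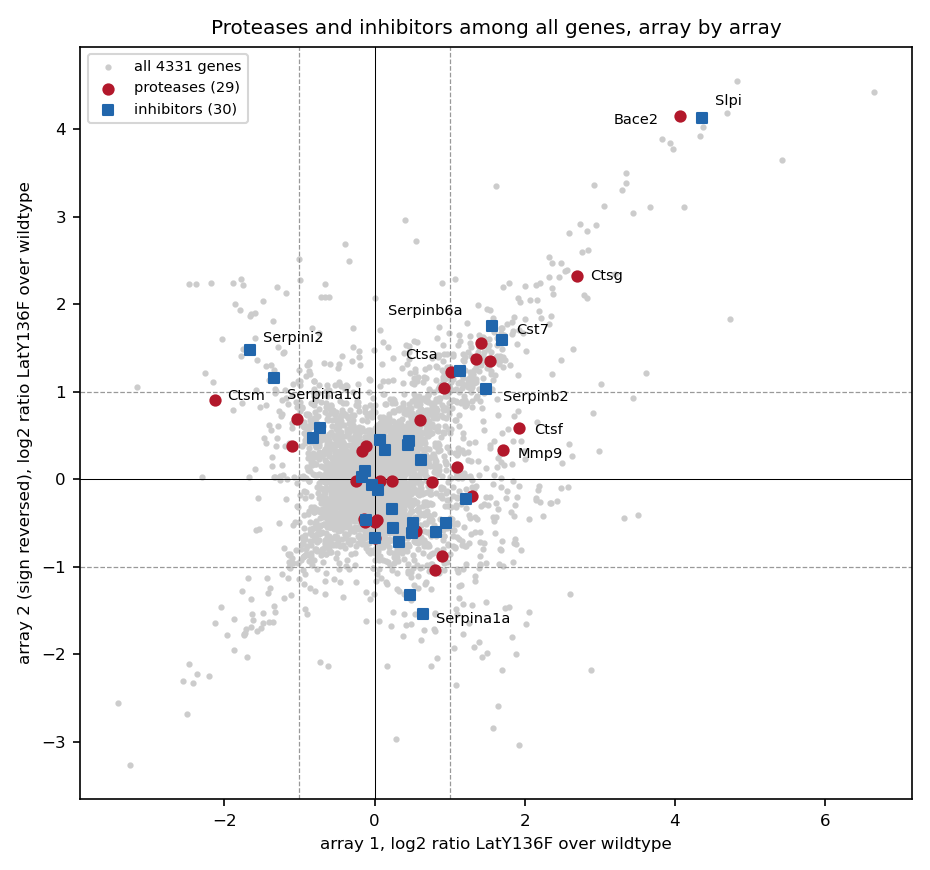
Log2 ratio on array 1 (x axis) against array 2 after sign reversal (y axis) for all 4331 genes (grey), the 29 proteases (red circles) and the 30 inhibitors (blue squares); dashed lines mark 2-fold. The called members lie near the diagonal in the upper right, up to Slpi and Bace2, and Ctsm, Serpini2 and Serpina1d lie in the upper left, where the arrays differ in sign.

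Further on, 13 pairs of an inhibitor and a protease it is known to bind are described. They were chosen with the values already known, so the count of 5 with both sides called has no background share. The 250 bases before the start of the 4 genes of 2 such pairs, Slpi with Ctsg and Cst7 with Ctsc, are shown because the genes of each pair had high ratios together; they come from RefSeq promoter windows on GRCm38.p6, and 47 of the 59 members and 9 of the 11 called ones had a window. Capitals mark every match, on either strand, to GAGGAA (the core of PU.1 sites), TTCNNNGAA (STAT5), TGANTCA (AP-1), CACGTG (E-box) or AGATAA (sites of GATA factors). The stretches are chr2:164356508-164356757, minus strand, for Slpi; chr14:56102575-56102824, minus strand, for Ctsg; chr2:150570165-150570414, plus strand, for Cst7; and chr7:88277835-88278084, plus strand, for Ctsc.
Slpi: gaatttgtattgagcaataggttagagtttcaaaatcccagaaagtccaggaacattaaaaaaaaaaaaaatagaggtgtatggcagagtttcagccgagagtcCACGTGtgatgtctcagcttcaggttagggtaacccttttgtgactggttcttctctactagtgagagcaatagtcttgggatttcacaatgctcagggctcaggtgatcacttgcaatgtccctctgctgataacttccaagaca
Ctsg: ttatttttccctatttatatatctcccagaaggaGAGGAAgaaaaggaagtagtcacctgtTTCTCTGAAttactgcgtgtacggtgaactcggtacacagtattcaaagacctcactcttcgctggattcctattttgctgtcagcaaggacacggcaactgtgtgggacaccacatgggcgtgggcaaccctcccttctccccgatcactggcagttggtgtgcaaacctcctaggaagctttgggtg
Cst7: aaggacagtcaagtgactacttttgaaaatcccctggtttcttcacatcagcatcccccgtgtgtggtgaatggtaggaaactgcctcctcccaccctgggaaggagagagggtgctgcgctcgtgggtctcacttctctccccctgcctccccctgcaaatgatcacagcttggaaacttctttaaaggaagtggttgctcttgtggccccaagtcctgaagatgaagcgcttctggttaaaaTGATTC
Ctsc: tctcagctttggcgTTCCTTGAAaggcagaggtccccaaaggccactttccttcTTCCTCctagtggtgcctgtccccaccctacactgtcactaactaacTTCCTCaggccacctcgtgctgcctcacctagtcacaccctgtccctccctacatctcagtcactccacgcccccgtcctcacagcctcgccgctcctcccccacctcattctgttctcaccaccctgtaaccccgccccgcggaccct

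The Slpi stretch held 1 E-box match, starting at -146, and none of the other motifs. Ctsg held 1 match to the PU.1 core at -216 and 1 to the STAT5 letters at -189. Ctsc held the same pair of motifs, with PU.1 matches at -196 and -149 and a STAT5 match at -236. The only match near Cst7 was an AP-1 match that starts at -6 and ends 1 base beyond the printed stretch.

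Over whole windows, 250 bases before to 50 after a start, the STAT5 letters were found for 4 of 9 called members (Ctsc, Ctsg, Serpinb6a and Serpinb2), for 10.6% of the 47 members and for 9.55% of the 27025 genes with a window (8.30% of the 32851 windows of 300 bases). The PU.1 core was found for 4 of 9 (Ctsc, Ctsg, Cst3 and Serpinb6a), beside 27.7% of members, 31.3% of genes and 28.3% of windows. The E-box was found for 3 of 9 (Ctsl, Ctsa and Slpi), beside 10.6% of members, 8.09% of genes and 7.15% of windows. AP-1 matches stood near 2 of 9 (Cst7 and Serpinb2), beside 21.3% of members, 8.97% of genes and 7.81% of windows, and GATA matches near 1 (Serpinb2), beside 12.8% of members, 12.7% of genes and 11.2% of windows. These are letter matches only; some genes have several windows, and the letters of different motifs can overlap.

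Of the cysteine cathepsins, Ctsc and Ctsl were called. Ctsc, the dipeptidyl peptidase that activates the granule serine proteases, stood at 1.41 on array 1 and 1.56 on array 2, a mean of 1.49 ± 0.073 or 2.80-fold. Ctsl, a broadly expressed lysosomal endopeptidase, gave 1.35 and 1.38 (1.36 ± 0.013, 2.57-fold), one of the closest agreements between the arrays among all members.

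Ctsz, a lysosomal carboxypeptidase, was just short of the threshold, at 0.92 on array 1 and 1.04 on array 2 (1.97-fold). The called member nearest to it was Ctsa, at 1.02 and 1.23. Ctsf gave 1.93 and 0.59, and the aminopeptidase gene Ctsh 1.10 and 0.14. Both were above 0 on either array but past 2-fold on array 1 alone.

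Ctsb, one of the most abundant lysosomal endopeptidases of many tissues, gave 1.30 on array 1 but -0.19 on array 2, so its direction cannot be given. Ctss, which trims the invariant chain in antigen-presenting cells, stood at -0.24 and -0.02. Ctsw, a cathepsin of cytotoxic lymphocytes, stood at 0.23 and -0.02, and Ctsk, the collagen-degrading enzyme of osteoclasts, at -0.17 and 0.33. Ctso was below 0 on both arrays, at -0.12 and -0.48. None of these 4 reached 1.5-fold on either array.

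The remaining 4 cysteine cathepsins, Cts6, Ctsj, Ctsm and Ctsr, belong to a rodent family expressed in placenta. Their mean ratios ran from -0.61 to 0.13, and 3 of the 4 had different signs on the arrays. Ctsm differed most between the arrays among these 4, at -2.12 on array 1 and 0.91 on array 2; its mean of -0.61 was the lowest of all members. These genes are close relatives of Ctsl and of each other, so their probes may share target RNA. The median of the 14 cysteine cathepsins was 0.12, and 0.59 over the 10 outside the placental family.

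Both serine cathepsins were called. Ctsg, the chymotrypsin-like protease of neutrophil and monocyte granules, had 3 probes, which gave 3.05, 2.95 and 2.10 on array 1 and 2.99, 2.31 and 1.69 on array 2 in the same order of probes. Every probe was past 2-fold on both arrays, and the gene's mean was 2.52 ± 0.19 (5.72-fold), rank 28 of the 4331 genes from the top. Ctsa, a lysosomal carboxypeptidase that also stabilises beta-galactosidase and neuraminidase, had the lowest mean of the called members, at 1.12 ± 0.10 (2.18-fold).

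All 3 aspartic proteases lay above 0 on both arrays. Bace2, a membrane-anchored protease related to the beta-secretase Bace1, gave 4.07 and 4.15, a mean of 4.11 ± 0.043 (17.3-fold), at rank 8 of all genes. Ctse, an endosomal protease of immune cells and epithelia, stood at 1.54 and 1.35 (1.44 ± 0.091, 2.72-fold). Ctsd, the main lysosomal aspartic protease, was 1.56-fold higher (0.61 and 0.68) and not called. Of the genes acting beside Bace enzymes on the amyloid precursor family, App (0.59 and 0.41) and Aplp2 (-0.07 and 0.36) were the only 2 of 10 listed genes measured, and neither was called.

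Beside 4.20% of all genes called higher and 0.970% called lower, none of the 10 MMP, ADAM and ADAMTS genes was called. Most of them encode zinc-dependent proteases, but Adam2, Adam4 and Adam5 are not known to cut proteins. Their median was -0.07, with 0.31 on array 1 and -0.46 on array 2, and the arrays shared a sign for 2 of the 10. Mmp9, the gelatinase of neutrophils and macrophages, gave 1.71 and 0.34 and so passed 2-fold on array 1 alone. Mmp12, the macrophage elastase, gave 0.90 and -0.88. Adam17, which sheds tumour necrosis factor and L-selectin from leukocytes, stood at 0.76 and -0.03, and Adam15 at 0.07 and -0.02. Adamts9, a protease of extracellular matrix proteoglycans, gave 0.81 and -1.04. Adam12 stood at 0.04 and -0.47.

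The ADAM genes Adam1a, Adam2, Adam4 and Adam5 are known from testis and sperm. Adam1a was below 0 on both arrays (-0.14 and -0.46). Adam5 (-1.09 and 0.38), Adam2 (0.55 and -0.58) and Adam4 (0.003 and -0.67) differed in sign between them. Of 19 measured genes among the cofactors and shed substrates of Adam10 and Adam17, Csf1, a macrophage growth factor that is released by shedding, was higher (4.82 and 4.55) and Fcer2a, the low-affinity IgE receptor of B cells, lower (-1.15 and -1.13). The median of that list was 0.06.

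Among the inhibitors, Slpi had the highest mean ratio of all members, although Bace2 was just above it on array 2. It gave 4.36 on array 1 and 4.13 on array 2, a mean of 4.25 ± 0.12 or 19.0-fold, at rank 5 of all genes. Its 1 probe is one measurement on each array.

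Both cystatins were called. Cst7, cystatin F, an inhibitor found inside the granules and lysosomes of leukocytes, stood at 1.70 and 1.59 (1.64 ± 0.053, 3.12-fold). Cst3, the secreted cystatin C, stood at 1.14 and 1.24 (1.19 ± 0.049, 2.28-fold). Their median of 1.42 exceeded that of the 14 cysteine cathepsins by 1.30, where the difference is proteases minus inhibitors at -1.30; on array 2 alone it was -1.06. Against the 10 cysteine cathepsins outside the placental family the difference was smaller, at -0.83. With only 2 cystatins measured, this is a statement about Cst3 and Cst7 and not about the family.

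The 23 serpins had a median of -0.05, and 16 of them had different signs on the arrays. The called ones were Serpinb6a and Serpinb2, both of clade b, whose members act mostly inside cells. Serpinb6a, an inhibitor of cathepsin G, gave 1.57 and 1.75 (1.66 ± 0.093, 3.16-fold). Serpinb2, a plasminogen activator inhibitor made by monocytes and macrophages, gave 1.49 and 1.03 (1.26 ± 0.23, 2.40-fold), and array 2 brought it just past 2-fold.

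The other 8 clade b genes were not called. Serpinb9, the granzyme B inhibitor of lymphocytes, gave 1.22 on array 1 and -0.23 on array 2. Its relative Serpinb9b gave 0.48 and -1.32. Serpinb6b was above 0 on both (0.61 and 0.23), as was Serpinb8 (0.07 and 0.46). Serpinb1a, an inhibitor of neutrophil elastase, had 2 probes that differed, at -0.40 and 0.30 in the mean. Serpinb10, Serpinb3a and Serpinb5 had means from -0.33 to -0.16, and of these only Serpinb3a, as the mean of its 2 probes, was below 0 on both arrays. Serpinb6a and Serpinb6b, and Serpinb9 and Serpinb9b, are close relatives whose probes may share target RNA.

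None of 8 clade a serpins had the same sign on both arrays. They include the alpha-1-antitrypsin genes Serpina1a to Serpina1e, plasma inhibitors made mainly in liver and so alike in sequence that their probes cannot be kept apart with confidence. Serpina1a gave 0.65 and -1.54, and Serpina1d -1.34 and 1.16. Serpina1f gave 0.82 and -0.60, Serpina1b 0.50 and -0.61, and the mean of the 2 Serpina1c probes was 0.51 and -0.50. Serpina3n, an inhibitor that binds granzyme B, stood at -0.16 and 0.03, Serpina5 at -0.13 and 0.10, and Serpina1e at 0.04 and -0.12.

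The other serpins, Serpinf2, Serping1, Serpinh1, Serpini1 and Serpini2, had means between -0.19 and 0.24. Serpinf2, the plasmin inhibitor, stood at 0.14 and 0.34, and Serping1, the inhibitor of the first complement component, at -0.03 and -0.06. Serpinh1, a collagen chaperone that inhibits no protease, gave -0.72 and 0.59, and the brain serpin gene Serpini1 0.33 and -0.71. Serpini2 gave -1.66 and 1.48. Serpini2 and Serpina1d were the 2 members (3.39%) at least 2-fold apart in opposite directions, beside 1.73% of all genes.

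None of 4 TIMP genes was called, beside 4.20% of all genes called higher and 0.970% called lower. A class of 4 genes can easily hold no call at these shares. Timp2 gave 0.46 and 0.44 and Timp1 0.45 and 0.39, or 1.37-fold and 1.34-fold higher in the mean, with little difference between the arrays. The 2 Timp1 probes had means of 0.62 and 0.21. Timp3, the TIMP that also inhibits Adam17, gave 0.95 and -0.50, and Timp4 -0.82 and 0.48. The TIMP median was 0.32, and the difference of the MMP, ADAM and ADAMTS median from it was -0.39, with -0.14 from array 1 and -0.88 from array 2.

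Set against each other as sides, proteases had a median of 0.11 and inhibitors of -0.03, a difference of 0.13. It was 0.22 for array 1 by itself and 0.27 for array 2, 0.26 with Adam2, Adam4, Adam5 and Serpinh1 left out, which are not known to cut or inhibit proteins, and 0.39 without the 4 placental cathepsins. These differences are small beside the spread among genes, which ran from -0.61 to 4.11 over the proteases and from -0.45 to 4.25 over the inhibitors.

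Single inhibitors lay both above and below the proteases they bind, over 13 pairs taken from general knowledge with the values already known. Both sides were called in 5 pairs. Taking the protease minus the inhibitor, Ctsc minus Cst7 was -0.16 ± 0.13, not larger than the difference between the arrays. Ctsl minus Cst3 was 0.17 ± 0.036 and Ctsl minus Cst7 -0.28 ± 0.066. Ctsg minus Slpi was -1.73 ± 0.071, a 3.32 times larger fold for the inhibitor. The same protease exceeded Serpinb6a by 0.85 ± 0.28.

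In 6 pairs a single side was called. Ctsg exceeded Serpinb1a by 2.57 ± 0.096. Cst3 was called and Ctss was not, with a difference of -1.32 ± 0.065, while Ctsb minus Cst3 was -0.64 ± 0.79 and not larger than the difference between the arrays. Serpinb2 was called while its target Plau, the urokinase gene, stood at 0.24 and 0.23, a difference of -1.03 ± 0.22. Gzmb, the granzyme of cytotoxic cells, gave 3.94 and 3.84 and exceeded Serpinb9 by 3.39 ± 0.67 and Serpina3n by 3.96 ± 0.14. Neither side was called in the other 2 pairs. Mmp9 minus Timp1 was 0.60 ± 0.66 and Adam17 minus Timp3 0.14 ± 0.33, neither larger than the difference between the arrays.

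**Figure D3:**
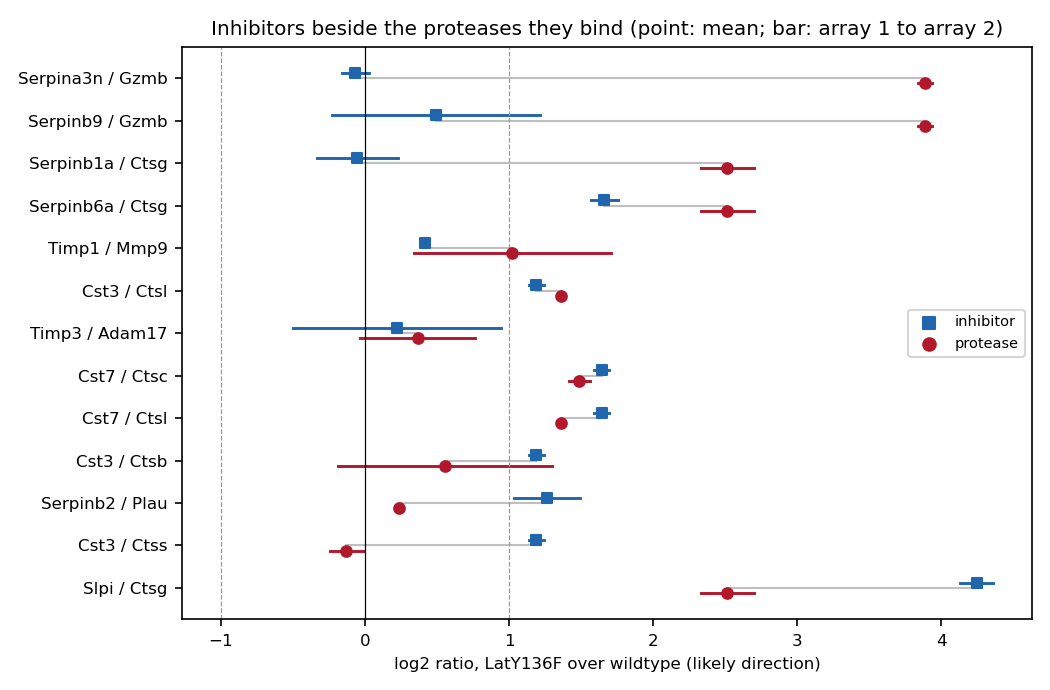
Mean log2 ratio (points, x axis) of an inhibitor (blue squares) and a protease it is known to bind (red circles) for 13 pairs, named inhibitor first; coloured bars run from array 1 to array 2, grey lines join the means and dashed lines mark 2-fold. Slpi lies to the right of Ctsg, Cst7 and Cst3 lie close to Ctsl, and Gzmb lies far to the right of Serpinb9 and Serpina3n.

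Other protease genes and related lists are given beside the 4.20% of all genes called higher and the 0.970% called lower. Lists this short can easily hold no call at these shares. Of 14 measured serine proteases outside the members, Gzmb alone was called (7.14%). Prtn3, a neutrophil granule protease, gave 2.49 on array 1 and 0.19 on array 2, and Gzmc stood at 0.83 and 0.80. Of 15 measured genes on a list of other inhibitors none was called; the list also held Csn2, a milk casein that is not known as an inhibitor. The furthest from 0 was Pi16, at -0.97 and -0.66. The calpain subunit gene Capns1 (0.66 and 0.91) and the thrombin receptor gene F2rl2 (0.77 and 1.39) led their lists of 3 and 9 measured genes, which held no call. Enpep, the only metallopeptidase measured of its list, gave 0.96 and -0.54, and none of 10 proprotein convertase genes was measured. The 10 measured genes of class II antigen processing, where Ctss and Ctsl act on the invariant chain, had a median of -0.51 with none called. Of these, 9 were below 0 on both arrays and 1 differed in sign between the arrays. Cd74, the invariant chain itself, stood at -0.51 and -0.65, and H2-Eb1, the furthest from 0, at -0.66 and -0.73.

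Markers of other cells differed beside the members, and their part in the ratios of the proteases and inhibitors was not tested. Ctsg, Slpi, Mmp9 and Serpinb2 are also products of neutrophils or macrophages. Counts of called markers, here and below, stand beside 4.20% of all genes called higher and 0.970% called lower. Of 7 measured neutrophil markers (of 16 listed), 3 were called higher, with a median of 1.34: Il1r2 (4.12 and 3.11), Lcn2 (2.92 and 3.37) and Ngp (2.66 and 2.34). The gene at that median was Prtn3, whose arrays differed (2.49 and 0.19). Csf3r, the lowest of the list, stood at 0.37 and -0.05. Mpo, which shares the granules of Ctsg, stood at 0.84 and 0.42. Of 18 measured macrophage and monocyte markers (of 26 listed), 7 were called higher, with a median of 1.16, led by Mrc1 (2.84 and 2.62), C1qc (2.56 and 2.40), Lyz1 (2.36 and 2.19) and Vcam1 (1.64 and 1.41). Msr1 (-0.06 and -0.84) and Marco (0.03 and -0.71) were the lowest of that list.

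Of 15 measured B cell markers (of 17 listed), 8 were called lower, with a median of -1.14. The lowest were Cd79b (-2.47 and -2.11), Ighm, Cr2 and Cd72. Of the 15, 14 were below 0 on both arrays, and Cd24a was above 0 on both (0.49 and 0.76). Genes listed as dendritic cell markers had a median of -0.03 over 7 genes, with Ccr7 (-1.70 and -2.03) and Ly6d (-1.39 and -1.24) called lower. Neither of these called genes is particular to dendritic cells. Itgax of that list was above 0 on both arrays (0.79 and 0.70), and Ccl22 differed in sign (1.11 and -1.05). Erythroid markers had a median of 0.84 over 5 genes, with Epor and Hba-a1 called higher. Platelet markers had a median of 1.20 over 3 genes, with Pf4 and Itga2b called higher. The other, Itgb3, was below 0 on both arrays (-0.21 and -0.57). Mast cell and basophil markers had a median of 0.95 over 4 genes, with none called and Ms4a2 the highest at 0.96 and 1.43. None of 12 measured T cell markers was called, beside 4.20% of all genes called higher and 0.970% called lower. A list this short can easily hold no call at these shares. The T cell markers had a median of -0.05. They ran from Cd247 (-0.42 and -1.34), a chain of the receptor complex, to Cd5 (0.70 and 0.92); Lat stood at -0.16 and -0.17. The ratios show no level, so whether a marker was near 0 in both populations cannot be seen. In such bulk RNA, fewer cells of a type and less RNA per cell cannot be told apart.

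**Figure D4:**
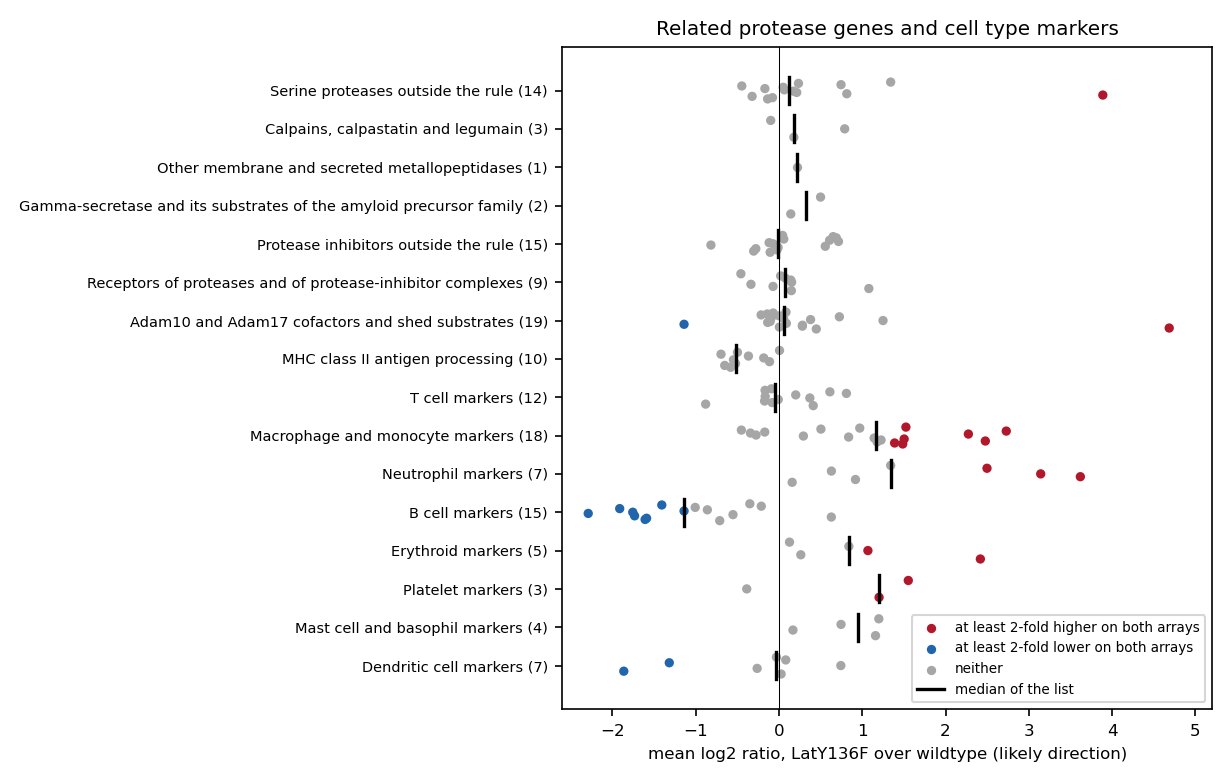
Mean log2 ratio (x axis) of each measured gene of the related protease and inhibitor lists and of the cell type marker lists (rows, with the number of genes measured); red and blue points are genes at least 2-fold higher or lower on both arrays and black bars are list medians. Neutrophil and macrophage markers lie mostly to the right of 0 and B cell markers to the left, while T cell markers and the other inhibitors centre near 0.

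The called members came from several places in the genome (RefSeq gene table, GRCm38.p6, which places all 59 members). Of 7 members on chromosome 2, 4 were called (Slpi, Ctsa, Cst3 and Cst7) and Ctsz, Mmp9 and Serping1 were not. Over all measured genes on that chromosome, 6.11% of 311 were called higher. The 10 members on chromosome 12 included no called gene, beside 3.31% of 151 genes measured there. Of 10 on chromosome 13, 2 were called (Serpinb6a and Ctsl), beside 5.73% of 157. Neighbouring genes of a family are not independent of each other.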

How the data were processed

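Each array compared LatY136F and wildtype RNA of splenic CD4+ alpha beta T cells. The authors deposited a log ratio for each of 8014 probes on each array, read here as log10 ratios because the highest value of array 1 is exactly 2. No source used here gives the log base, the background correction, the normalization or any filter. Over all probes the 2 columns as deposited correlated at -0.21 (Pearson) and, by rank, at -0.06 (Spearman), and array 2 was multiplied by -1.

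Values were multiplied by 3.32 to give log2, centred on each array's median and averaged over the probes of a gene. By the platform annotation 4654 probes carry a single symbol and were used by name, while 73 with several symbols and 3287 without one were not. Of the members, 5 had more than 1 probe. Python 3.11.15 and pandas 2.3.3 were used, and the calling rule was tested on simulated data.

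A gene was named when it was a member, a called gene of a list (at most 4 per list) or the gene furthest from 0 of a list without calls. Not every named gene has its array values printed. Lat, Plau, Cd74 and Gzmb were added. After their values were seen, Gata3, Il13, Prtn3, Gzmc, Mpo, App, Aplp2, Msr1, Marco, Il4, Cd5, Csn2, Csf3r, Itgax, Ccl22, Itgb3 and Cd24a were added too. Members and lists were chosen with earlier results of these data known. Alternatives covered centring, scaling, probe choice, single arrays, thresholds, log base, direction and, chosen after seeing the data, leaving out the placental cathepsins.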

Additional observations from a re-analysis of the deposited data

How the results depend on the processing

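Of 66 values of the 11 called genes without centring, with the strongest probe per gene, with scaled arrays, on single arrays or read as log2, none changed sign and 12 moved beyond the spread between the arrays, 11 of them under the log2 reading. On single arrays both outcomes were fixed: called genes were past 2-fold on both arrays, and the spread exceeds each array's distance from the mean. Scaling the arrays and the log2 reading cannot change a sign. No member probe was at exactly 0, so leaving out such probes could change nothing. Without centring, with the strongest probe per gene or with scaled arrays, the counts of 11 higher and 0 lower members stayed within 1.5 times. Read as log2, 2 members were higher, the difference of proteases minus inhibitors was 0.04, that of cysteine cathepsins minus cystatins -0.39 and that of MMP, ADAM and ADAMTS genes minus TIMPs -0.12, as rescaling must give. A 3-fold threshold left 4 higher. With a single array, 14 to 16 members were higher and 3 to 5 lower, as fewer conditions must be met; the differences were 0.22 to 0.27 for proteases minus inhibitors and -1.30 to -1.06 for cysteine cathepsins minus cystatins. Means over members gave 0.18, -1.05 and -0.22 for these 3 differences, and leaving out members without known activity gave 0.26 for the first; the cause was not tested. Without the placental cathepsins, left out after seeing the data, the first was 0.39 and the second -0.83. Turning the direction made all 11 called members lower, with 0 higher, and gave differences of -0.13, 1.30 and 0.39. No paired analysis was possible because the study holds a single comparison. Signal over background, which limits the precision of each ratio, is not known here.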
